A study of Mus musculus with 9 samples.

Results

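Toll-like receptors and the lipopolysaccharide (LPS) co-receptor Cd14 were followed as a family of 10 genes (Tlr1, Tlr2, Tlr3, Tlr4, Tlr6, Tlr7, Tlr8, Tlr9, Tlr13 and Cd14), chosen by name out of 24187 genes in the deposited tables. All 10 were listed in both tables and all 10 passed the filter on low values in every comparison. The cells were macrophages grown from the bone marrow of C57BL/6 mice at postnatal week 8, by culture with macrophage colony-stimulating factor. The 3 groups were cells given LPS (500 ng/ml) together with NCT503 (50 µM), written here as LPS + NCT503, cells given LPS alone (500 ng/ml), and control cells in medium alone, each for 6 h and with 3 libraries. NCT503 inhibits phosphoglycerate dehydrogenase, the enzyme that starts serine synthesis from a glycolytic intermediate, and no group had NCT503 without LPS. The labels name no vehicle for the LPS and control cells.

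Toll-like receptors are membrane proteins that recognise microbial molecules and signal through the adaptors MyD88 and TRIF to NF-κB, MAP kinases and interferon regulatory factors. At the cell surface TLR4, with its partner MD-2, recognises LPS that CD14 has delivered to it, and TLR2 recognises bacterial lipopeptides as a pair with TLR1 or TLR6. TLR3, TLR7, TLR8, TLR9 and TLR13 reside in endosomes and recognise nucleic acids, after transport by UNC93B1 and cleavage by endosomal proteases. Macrophages express most of the family, and in these cells LPS is known to change the transcripts of several receptors.

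Start-site sequences were read for every member with an entry in the table used. They come from RefSeq (assembly GRCm38.p6, the assembly of mm10), as windows of 250 bases before to 50 bases after a start site, and 7 of the 10 genes had such a window, 9 windows in all. Both strands were searched for the NF-κB consensus, the interferon regulatory factor core (GAAA, any 2 bases, GAAA), the AP-1 site TGANTCA, the STAT-type site TTCNNNGAA and the PU.1 core GAGGAA. Tlr2 and Tlr3 are shown because their windows held the only NF-κB consensus matches of the 9, and one Tlr6 window because it held the only interferon regulatory factor cores. The windows are Tlr2 at chr3:83841559-83841858, Tlr3 at chr8:45410331-45410630 and Tlr6 at chr5:64959117-64959416, all on the minus strand and printed 5′ to 3′, with the matches in capitals.
Tlr2: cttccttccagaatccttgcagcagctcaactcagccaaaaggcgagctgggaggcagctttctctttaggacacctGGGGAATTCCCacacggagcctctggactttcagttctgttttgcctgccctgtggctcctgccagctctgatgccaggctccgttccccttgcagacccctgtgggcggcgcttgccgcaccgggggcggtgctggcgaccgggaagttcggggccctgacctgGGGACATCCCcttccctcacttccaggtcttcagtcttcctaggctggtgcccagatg
Tlr3: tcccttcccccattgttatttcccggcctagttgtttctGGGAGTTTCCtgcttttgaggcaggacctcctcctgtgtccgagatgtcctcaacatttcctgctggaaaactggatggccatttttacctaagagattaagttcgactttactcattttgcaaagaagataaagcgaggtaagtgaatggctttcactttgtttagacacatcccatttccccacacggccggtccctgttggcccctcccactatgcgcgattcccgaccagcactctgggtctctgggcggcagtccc
Tlr6: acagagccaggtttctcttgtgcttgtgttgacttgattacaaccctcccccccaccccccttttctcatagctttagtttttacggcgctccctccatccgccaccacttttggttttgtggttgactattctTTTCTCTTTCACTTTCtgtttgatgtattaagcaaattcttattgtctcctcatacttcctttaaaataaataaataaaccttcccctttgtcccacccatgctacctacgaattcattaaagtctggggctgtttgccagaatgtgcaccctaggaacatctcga
In Tlr2 the first capital run holds 2 overlapping NF-κB matches that begin at positions -173 and -172 from the start site, and a further match begins at -8. In Tlr3 the match begins at -211. In Tlr6 the capitals hold 2 overlapping interferon regulatory factor cores on the opposite strand, at -116 and -110. Of all 32851 windows in the table, 8.46% held the NF-κB consensus and 3.44% the interferon regulatory factor core. The other matches were a PU.1 core in Tlr1, Tlr8, Tlr9 and Tlr13 (28.3% of all windows), a STAT-type site in Tlr1, Tlr6 and Tlr8 (8.3%) and an AP-1 site in Tlr9 (7.81%). The windows shown for Tlr3 and Tlr6 lie wholly inside the genes as listed, whose 5′ ends are at 45411080 and 64960097. Their start sites are thus downstream of those ends. The Tlr1 window with the STAT-type site, at 64932650 to 64932949, also lies wholly inside its gene, whose 5′ end is at 64933563. The Tlr2 window spans the listed 5′ end of Tlr2, at 83841767. Its start site and the match at -8 lie downstream of that end. The other Tlr6 window, at 64959999 to 64960298, spans the 5′ end and held no interferon regulatory factor core. A match describes letters in this window and not a bound site.

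Expression was measured by RNA sequencing, with 20295862 to 23599685 reads per library over the genes of both tables. Values are normalized reads, the number of reads of a gene divided by a size factor set over all 9 libraries. Genes were tested with limma on log2(normalized reads + 1), so a fold change understates that of low genes, by more where reads are fewer. A gene is called where its p, adjusted by the Benjamini-Hochberg method over all genes tested, is under 0.05. The labels do not say that replicates came from separate animals or cultures, so each p reflects how far these libraries scatter, which may be technical. Some libraries stood apart within their group in how genes of high GC content (at least 55.4%) compared with genes of low GC content (at most 43.8%). The difference, relative to the group's mean, was -0.30, 0.56 and -0.26 log2 units in LPS + NCT503 replicates 1 to 3, -0.50, 0.39 and 0.08 in LPS, and -0.29, 0.02 and 0.26 in control, and values without LPS replicate 1 and LPS + NCT503 replicate 2 are given where they matter. The groups differed in it as well, with overlap of libraries. Relative to the mean over all 9 libraries it was -0.64, 0.20 and -0.55 in LPS + NCT503, -0.19, 0.68 and 0.41 in LPS, and -0.17, 0.05 and 0.29 in control. Macrophage markers were abundant throughout, with the M-CSF receptor gene Csf1r at 34516 to 45389 normalized reads in all 9 libraries. The summed reads of the 9 macrophage markers were 204905 to 262188 in LPS + NCT503, 394244 to 455572 in LPS and 285764 to 366472 in control. Stromal marker sums were 16028 to 41135, 15524 to 34036 and 5470 to 25133, endothelial sums 2487 to 2965, 1795 to 1909 and 534 to 1373, and neutrophil sums 290 to 716, 946 to 1962 and 1325 to 2578, in the same order of groups. No library had more than 287 summed reads of the B cell, T cell, plasmacytoid or conventional dendritic cell markers. The plasmacytoid marker Siglech, at most 3.46 in any library, and the neutrophil marker Cxcr2, at most 11.6, were at 0 in all LPS + NCT503 libraries. Other markers of these lists differed from that: Ccr9 averaged 26.5 in LPS + NCT503, 26.1 in LPS and 5.91 in control. Mmp8 averaged 351, 256 and 371 in the same order. The neutrophil markers S100a8 (72.3, 899 and 780) and Elane (19.4, 164 and 729) were lowest in LPS + NCT503. The part of such cells in the results was not tested, and in bulk samples fewer cells of a type and less RNA per cell cannot be told apart.

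**Figure D1:**
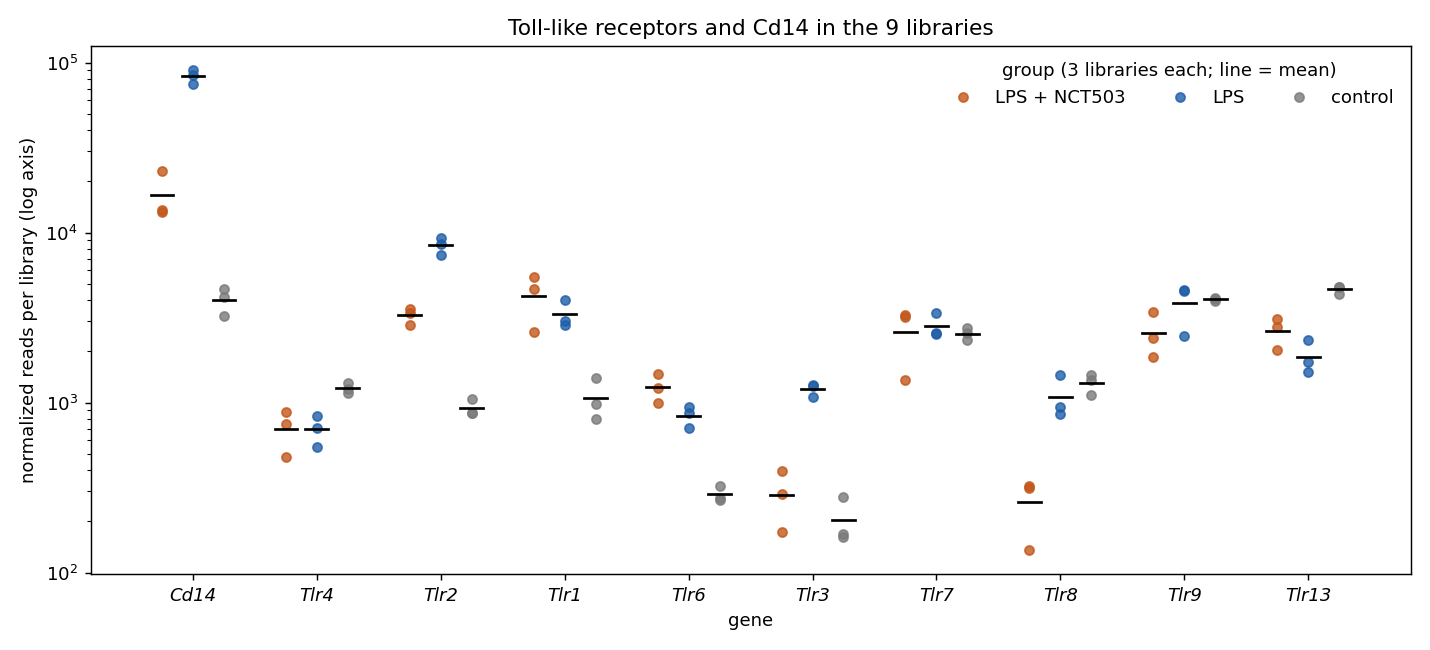
Normalized reads (log axis) of Cd14 and the 9 receptors in each of the 9 libraries, as points by group (LPS + NCT503, LPS, control), with a line at each group's mean. Cd14 in LPS lay between 75244 and 90464, above all other points, and Tlr8 in LPS + NCT503 between 135 and 324, below both other groups.

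LPS raised 5 of the 10 transcripts and lowered 2. Cd14, Tlr2, Tlr3, Tlr1 and Tlr6 rose and Tlr13 and Tlr4 fell, while Tlr7, Tlr8 and Tlr9 did not pass the test. Against this 7 of 10, the test called 42.0% of all 19908 genes (20.5% higher and 21.5% lower). With NCT503 added to LPS, Cd14, Tlr3, Tlr8 and Tlr2 were lower than with LPS alone and no member was called higher, 4 of 10 against 31.3% of 20527 genes (16.2% higher and 15.1% lower). Set against control, LPS + NCT503 cells still differed in 8 of the 10, with Tlr6, Cd14, Tlr1 and Tlr2 higher and Tlr8, Tlr13, Tlr4 and Tlr9 lower, where 40.4% of 19930 genes were called (20.7% higher and 19.7% lower). The libraries of the groups did not overlap for 7, 5 and 8 of the 10 members in the same comparisons, beside 51.0%, 43.5% and 50.2% of all genes. The median log2 fold change of the 10 was 0.83 for LPS against control, -0.39 for LPS + NCT503 against LPS and 0.20 for LPS + NCT503 against control, beside -0.05, 0.11 and 0.05 over all genes tested. CPM scaling, which uses library totals alone, moved the median of all genes to -0.68, 0.31 and -0.38 in the same comparisons and the calls over all genes from 4076 higher and 4289 lower to 2092 and 8539, from 3335 and 3097 to 4392 and 2141, and from 4134 and 3927 to 2451 and 6572. On that scale Tlr7 (-0.56), Tlr8 (-1.0) and Tlr9 (-0.82) were also called lower in LPS than in control, Tlr6 (0.79) and Tlr13 (0.75) were called higher in LPS + NCT503 than in LPS, and every member called on the main scale kept its direction. These comparisons share libraries, so their values are given side by side for each gene and not set against each other.

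**Figure D2:**
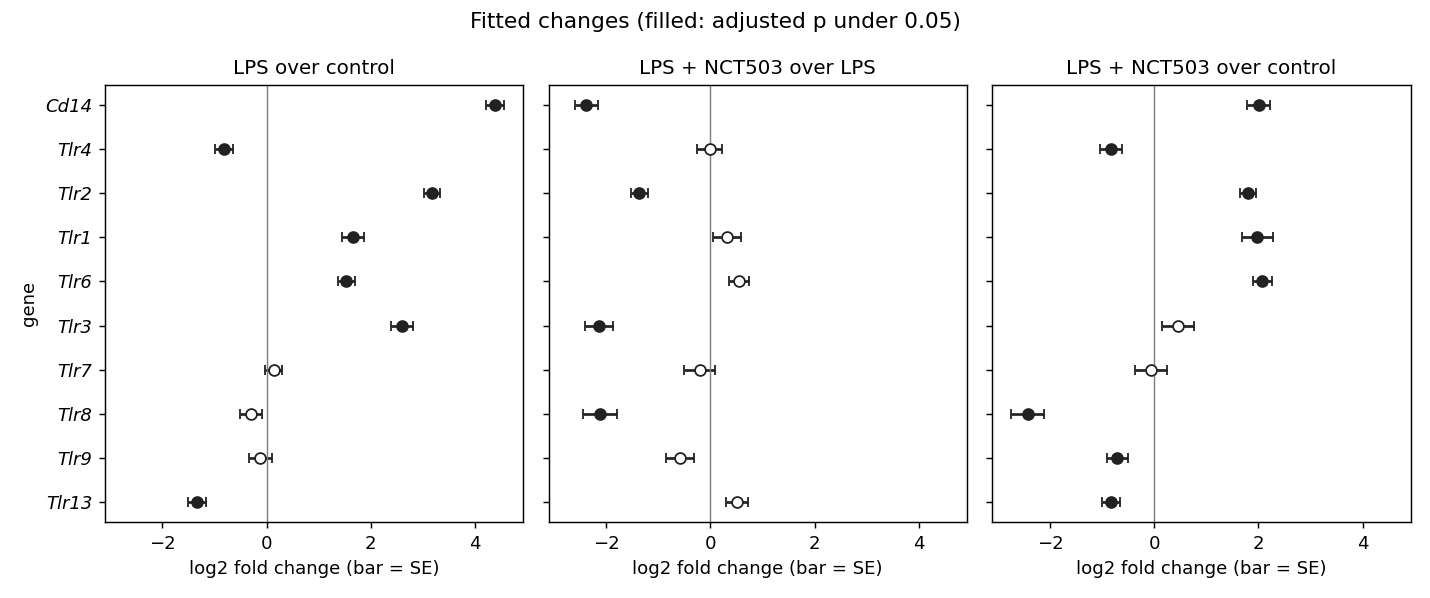
Fitted log2 fold changes of the 10 genes in LPS over control, LPS + NCT503 over LPS and LPS + NCT503 over control, from limma, with bars for the SE and filled points for an adjusted p under 0.05. Cd14 stood at 4.38, -2.38 and 2.0, and Tlr4 at -0.82, -0.02 and -0.83.

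Cd14, the GPI-anchored protein that passes LPS to TLR4, showed the largest change of the 10 in LPS against control. It lies on chromosome 18 (36725074 to 36726736, minus strand, mm10). Cd14 had 13156, 22954 and 13519 normalized reads in LPS + NCT503, 75244, 90464 and 84992 in LPS and 3244, 4199.7 and 4658 in control. The 3 groups did not overlap, and LPS + NCT503 replicate 2 was the highest of its group. LPS raised Cd14 20.9-fold, a log2 fold change of 4.38 ± 0.17 (SE, n = 3 each, adjusted p = 6.57e-09 by limma). In LPS + NCT503 it was lower than in LPS by a log2 fold change of -2.38 ± 0.22 (adjusted p = 1.05e-05) and higher than in control by 2.0 ± 0.23 (adjusted p = 6.59e-05).

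Tlr4, the receptor for LPS itself, moved the other way from its co-receptor (chromosome 4, 66827584 to 66930284, plus strand). Tlr4 had 879, 478 and 752 normalized reads in LPS + NCT503, 833, 551 and 711 in LPS and 1302, 1201 and 1145 in control. Every library given LPS, with or without NCT503, lay below every control library, while the LPS and LPS + NCT503 libraries overlapped. Tlr4 fell with LPS, with a log2 fold change of -0.82 ± 0.17 (SE, adjusted p = 0.00245 by limma), and was lower in LPS + NCT503 than in control by -0.83 ± 0.22 (adjusted p = 0.0109). Between LPS + NCT503 and LPS the log2 fold change was -0.02 ± 0.25 (adjusted p = 0.968). A correction for GC content gave -0.46 (adjusted p = 0.0343) for that last comparison, and its sign was positive under 3 other settings and without LPS replicate 1, LPS replicate 3 or LPS + NCT503 replicate 2.

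The pairing of ligand carrier and receptor can be read within each library, where the scaling of libraries cancels. The ratio of Cd14 to Tlr4, in reads per kb of exon, was 52.9, 170 and 63.5 in LPS + NCT503, 319, 580 and 423 in LPS, and 8.81, 12.4 and 14.4 in control. Groups did not overlap for any of the 3 comparisons. An effect of GC content does not cancel in this ratio, as Cd14 has 52.5% and Tlr4 39.4%. Within each group the ratio ranked the libraries as the difference between high-GC and low-GC genes did. That difference also ran lower in LPS + NCT503 than in LPS, with overlap of libraries. The part of GC content in the ratio was not tested. The mean log2 ratio differed by 5.20 for LPS against control, by -2.37 for LPS + NCT503 against LPS and by 2.84 for LPS + NCT503 against control, each with p = 0.1 in an exact two-sided permutation test, the smallest p that 3 against 3 libraries allow (0.109 after adjustment over the 12 ratio tests). Among the other proteins of the LPS receptor, Ly96, which encodes MD-2, averaged 361 normalized reads in LPS against 185 in control (log2 fold change 0.96).

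Tlr2, the common partner of the lipopeptide receptors, rose with LPS and was lower with NCT503 (chromosome 3, 83836272 to 83841767, minus strand). It had 3537, 2873 and 3367 normalized reads in LPS + NCT503, 8611, 7361 and 9236 in LPS and 1053, 871 and 870.2 in control. All 3 groups were separate, with LPS + NCT503 between LPS and control. The rise with LPS was 9.01-fold (log2 fold change 3.17 ± 0.15 SE, adjusted p = 3.03e-08 by limma). Against LPS, LPS + NCT503 had a log2 fold change of -1.37 ± 0.17 (adjusted p = 9.35e-05), and against control one of 1.81 ± 0.15 (adjusted p = 8.41e-06). The promoter window of Tlr2 is the one with 3 NF-κB matches, 2 of which overlap. Their part in these changes was not tested.

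Tlr1 and Tlr6 encode the partners that let TLR2 distinguish triacylated from diacylated lipopeptides. They are neighbours on chromosome 5, both on the minus strand, Tlr1 at 64924679 to 64933563 and Tlr6 at 64952031 to 64960097, 18467 bases apart. Tlr1 had 5487, 2612 and 4685 normalized reads in LPS + NCT503, 4037, 2846 and 3011 in LPS and 1399, 975 and 797 in control. Both groups given LPS lay above all control libraries and overlapped each other, with LPS + NCT503 replicate 2 the lowest of its group. Tlr1 rose with LPS (log2 fold change 1.66 ± 0.21 SE, adjusted p = 7.59e-05 by limma) and was higher in LPS + NCT503 than in control (1.98 ± 0.29, adjusted p = 0.000516). For LPS + NCT503 against LPS the log2 fold change was 0.32 ± 0.26 (adjusted p = 0.384), and 0.64 without LPS + NCT503 replicate 2 (adjusted p = 0.0241), 0.10 without LPS + NCT503 replicate 1 (adjusted p = 0.811) and 0.047 with a GC-content correction (adjusted p = 0.870).

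Tlr6 had 1476, 992 and 1221 normalized reads in LPS + NCT503, 937, 706 and 865 in LPS and 324, 275 and 266 in control. No 2 groups overlapped, and LPS + NCT503 was the highest. Tlr6 rose with LPS (log2 fold change 1.53 ± 0.17 SE, adjusted p = 2.05e-05 by limma) and was higher in LPS + NCT503 than in control (2.07 ± 0.18, adjusted p = 1.04e-05). The difference between LPS + NCT503 and LPS was 0.55 ± 0.20 and missed the threshold (adjusted p = 0.0551). It passed under 9 of the alternatives, among them edgeR (adjusted p = 0.0343) and DESeq2 (adjusted p = 0.0356), but the GC-content correction gave 0.29 (adjusted p = 0.134), and over the alternatives the adjusted p ran between 0.00312 and 0.216. In the authors' deposited table the log2 fold change was 0.56 with an adjusted p of 0.0358. Tlr1 and Tlr6 are similar in sequence, with 15.4% of the 50-base stretches of Tlr1 and 12.3% of those of Tlr6 also found in transcripts of another gene, so some of their reads may have been split between genes.

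The balance within the TLR2 pairs differed between the groups. The ratio of Tlr1 to Tlr2 per kb was 1.40, 0.819 and 1.25 in LPS + NCT503, 0.422, 0.348 and 0.294 in LPS, and 1.20, 1.01 and 0.825 in control. The ratio of Tlr6 to Tlr2 was 0.337, 0.279 and 0.293 in LPS + NCT503, 0.0880, 0.0776 and 0.0758 in LPS, and 0.249, 0.255 and 0.247 in control. For both ratios LPS alone was the low group, with no overlap with the other groups. In log2 units Tlr1 to Tlr2 differed by -1.51 for LPS against control, 1.68 for LPS + NCT503 against LPS and 0.18 for LPS + NCT503 against control (exact permutation p = 0.1, 0.1 and 0.6). The value of 0.18 lay between 0.021 without LPS + NCT503 replicate 1 and 0.41 without LPS + NCT503 replicate 2. Tlr6 to Tlr2 differed by -1.64, 1.91 and 0.27 (exact permutation p = 0.1 for each). Adjusted over the 12 ratio tests these p-values were 0.109, or 0.600 for the one at 0.6.

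**Figure D3:**
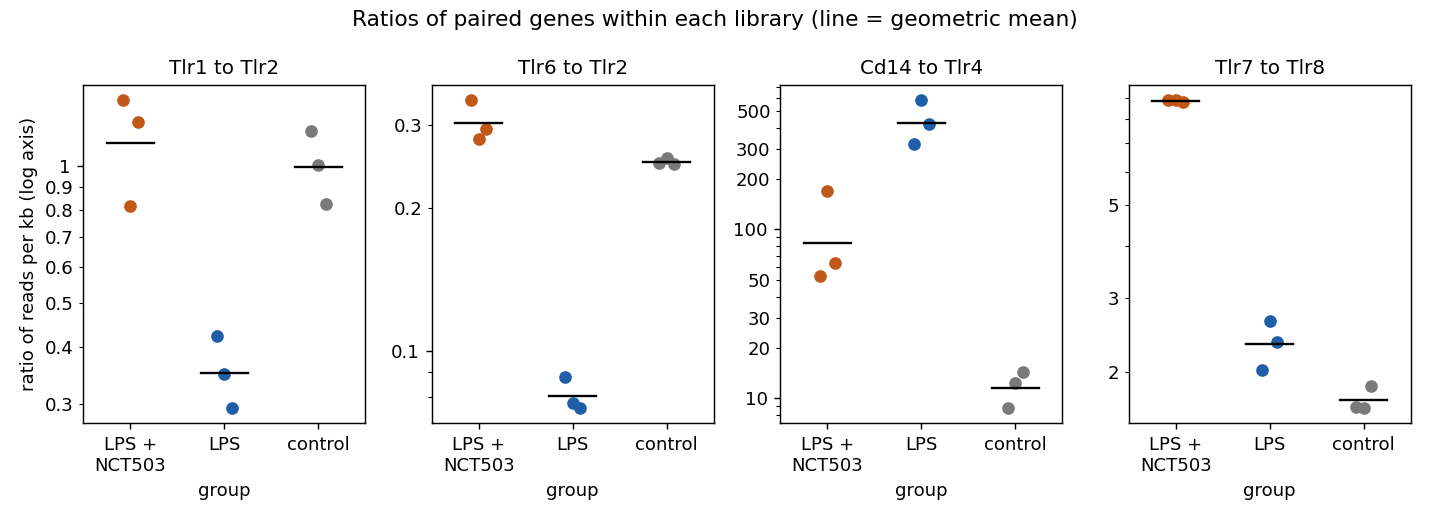
Ratios of reads per kb (log axes) for Tlr1 to Tlr2, Tlr6 to Tlr2, Cd14 to Tlr4 and Tlr7 to Tlr8, 1 point per library, with a line at each group's geometric mean. The LPS points are lowest for both ratios to Tlr2 and highest for Cd14 to Tlr4, and the 3 LPS + NCT503 points of Tlr7 to Tlr8 lie within 8.81 to 8.87.

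Of the endosomal receptors, Tlr3 rose with LPS and was lower with NCT503. Tlr3, the receptor for long duplex RNA that signals through TRIF, lies on chromosome 8 (45395665 to 45411080, minus strand). It had 397, 174 and 289 normalized reads in LPS + NCT503, 1256, 1073 and 1265 in LPS and 279, 162 and 169 in control. The LPS libraries stood above all others, and LPS + NCT503 overlapped control. The rise with LPS was 6.04-fold (log2 fold change 2.59 ± 0.21 SE, adjusted p = 1.96e-06 by limma), and LPS + NCT503 was lower than LPS by a log2 fold change of -2.14 ± 0.26 (adjusted p = 9.57e-05). Against control the log2 fold change in LPS + NCT503 was 0.46 ± 0.31 (adjusted p = 0.271), or 0.78 without LPS + NCT503 replicate 2 (adjusted p = 0.0238) and 0.0087 under CPM scaling (adjusted p = 0.986). Exons of Tlr3 overlap the opposite-strand gene Gm45542 over 381 of 5207 bases, and the strand setting of the counting is not given in the sources used here.

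Tlr7 and Tlr8 are neighbours on the X chromosome, both on the minus strand, at 167304929 to 167330558 and 167242696 to 167264329, with 40599 bases between them. TLR7 recognises single-stranded RNA, and in mice the loss of TLR8 is known to raise responses through TLR7. Tlr8 had 324, 135 and 316 normalized reads in LPS + NCT503, 1457, 851 and 939 in LPS and 1461, 1366 and 1102 in control. The LPS + NCT503 libraries were below all others, and LPS overlapped control. Tlr8 was lower in LPS + NCT503 than in LPS by a log2 fold change of -2.13 ± 0.33 (SE, adjusted p = 0.000437 by limma) and lower than in control by -2.43 ± 0.31 (adjusted p = 0.000205). It had the lowest log2 fold change of the 10 members in the second of these. For LPS against control the log2 fold change was -0.31 ± 0.21 (adjusted p = 0.264), and -0.54 without LPS replicate 1 (adjusted p = 0.0214). It was -0.15 without LPS replicate 2 (adjusted p = 0.611) and -0.077 with a GC-content correction (adjusted p = 0.665).

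Tlr7 had 3272, 1365 and 3169 normalized reads in LPS + NCT503, 3356, 2558 and 2515 in LPS and 2743, 2555 and 2323 in control. All groups overlapped, and LPS + NCT503 replicate 2 was the lowest of the 9 libraries. Tlr7 passed no test, with log2 fold changes of 0.14 ± 0.16 for LPS against control, -0.20 ± 0.30 for LPS + NCT503 against LPS and -0.07 ± 0.30 for LPS + NCT503 against control (SE, adjusted p = 0.523, 0.632 and 0.88 by limma). Its signs changed with the scaling, with DESeq2 or without LPS + NCT503 replicate 2. The ratio of Tlr7 to Tlr8 per kb was 8.87, 8.87 and 8.81 in LPS + NCT503, 2.02, 2.64 and 2.35 in LPS and 1.65, 1.64 and 1.85 in control. Both genes were low together in LPS + NCT503 replicate 2, by 0.82 log2 units below the group mean for each, and the ratio there was near that of replicates 1 and 3. The other receptors were also below their group mean in that library, by between 0.18 (Tlr2) and 0.64 (Tlr3) log2 units. Tlr8 had 318, 130 and 292 reads in the LPS + NCT503 libraries, too few to fix a ratio as finely as these 3 values agree. The log2 ratio differed by 0.44 for LPS against control, 1.93 for LPS + NCT503 against LPS and 2.37 for LPS + NCT503 against control, each without overlap of groups (exact permutation p = 0.1, adjusted 0.109).

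Tlr9, the receptor for DNA with unmethylated CpG, lies on chromosome 9 (106222598 to 106226883, plus strand) and has the highest GC content of the 10 transcripts (56.2%). It had 3399, 1864 and 2391 normalized reads in LPS + NCT503, 2472, 4522 and 4594 in LPS and 3944, 4133 and 4055 in control. LPS replicate 1 stood 0.59 log2 units below its group's mean, and LPS + NCT503 lay below control without overlap. Tlr9 was lower in LPS + NCT503 than in control by a log2 fold change of -0.71 ± 0.20 (SE, adjusted p = 0.0184 by limma). That call was lost with a GC-content correction (-0.59, adjusted p = 0.0786) and without control replicate 2 (adjusted p = 0.0630), control replicate 3 (0.0559) or LPS + NCT503 replicate 3 (0.0647). For LPS against control the log2 fold change was -0.12 ± 0.22 (adjusted p = 0.69), and 0.17 without LPS replicate 1. For LPS + NCT503 against LPS it was -0.59 ± 0.27 (adjusted p = 0.127), and -0.88 without LPS replicate 1 (adjusted p = 0.0220) and -0.34 under CPM scaling (adjusted p = 0.298).

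Tlr13, which recognises bacterial ribosomal RNA and has no human counterpart, lies apart from Tlr7 and Tlr8 on the X chromosome (106143204 to 106160493, plus strand). Tlr13 had 3081, 2031 and 2797 normalized reads in LPS + NCT503, 2329, 1521 and 1732 in LPS and 4786, 4795 and 4345 in control. All libraries given LPS lay below all control libraries. Tlr13 fell with LPS (log2 fold change -1.34 ± 0.17 SE, adjusted p = 7.44e-05 by limma), and in LPS + NCT503 it was lower than in control (-0.84 ± 0.18, adjusted p = 0.00338). For LPS + NCT503 against LPS the groups overlapped and the log2 fold change was 0.50 ± 0.21 (adjusted p = 0.0966), which passed without LPS replicate 1 (0.68, adjusted p = 0.0361) or LPS + NCT503 replicate 2 (0.68, adjusted p = 0.0220), under CPM (0.75, adjusted p = 0.0266) and quantile scaling (0.66, adjusted p = 0.0363), and with the replicate block (adjusted p = 0.00597). The GC-content correction gave 0.19 (adjusted p = 0.304).

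On a scale that allows genes to be compared, normalized reads per kb of exon, Cd14 was the most abundant of the 10 in every group, at 10524 ± 3534 in LPS + NCT503, 53159 ± 4904 in LPS and 2566 ± 459 in control (SD, n = 3 each). Below it, the order of the receptors differed between groups. In LPS + NCT503 it ran Tlr1 (1274), Tlr2 (1081), Tlr9 (734), Tlr13 (645), Tlr7 (637), Tlr6 (330), Tlr4 (126), Tlr8 (72.1) and Tlr3 (55.0), and only the step between Tlr6 and Tlr4 was free of overlap between libraries. In LPS the order of mean levels was Tlr2 (2788), Tlr9 (1111), Tlr1 (986), Tlr7 (688), Tlr13 (455), Tlr8 (302), Tlr3 (230.1), Tlr6 (224) and Tlr4 (126). There Tlr9 and Tlr1 overlapped, as did the neighbours from Tlr13 through Tlr8 and Tlr3 to Tlr6. In control the order was Tlr9 (1163), Tlr13 (1136), Tlr7 (622), Tlr8 (365), Tlr1 (316), Tlr2 (309), Tlr4 (219), Tlr6 (77.4) and Tlr3 (39.1), with overlap of Tlr9 and Tlr13, Tlr8 and Tlr1, and Tlr1 and Tlr2. Tlr4 was thus the lowest of the 10 by mean level in LPS, the stimulus it recognises, and had rank 8 in the other groups.

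Taken as shares of the reads per kb of the 9 receptors in a library, the make-up was mostly endosomal in control and mostly of cell-surface receptors in cells given LPS. Tlr3, Tlr7, Tlr8, Tlr9 and Tlr13 together held 42.9 ± 1.90% in LPS + NCT503, 40.4 ± 2.67% in LPS and 78.4 ± 2.11% in control (SD, n = 3 each). The endosomal share lay between 40.8% and 44.5% in LPS + NCT503 and between 38.1% and 43.4% in LPS, which overlap, and between 75.9% and 79.6% in control. The members behind these shares differed between the groups given LPS. Tlr2 held 22.5 ± 4.02% in LPS + NCT503, 40.3 ± 2.08% in LPS and 7.27 ± 0.479% in control, and Tlr1 held 25.2 ± 2.69%, 14.2 ± 2.21% and 7.37 ± 1.66% in the same order. Tlr13 held 13.2 ± 0.854% in LPS + NCT503, 6.56 ± 1.16% in LPS and 26.8 ± 0.823% in control, and Tlr8 1.41 ± 0.308%, 4.34 ± 1.12% and 8.57 ± 0.674%. The sum over the 9 receptors was 4954 ± 1301 normalized reads per kb in LPS + NCT503, 6909.7 ± 507 in LPS and 4247 ± 293 in control, with LPS + NCT503 overlapping control.

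**Figure D4:**
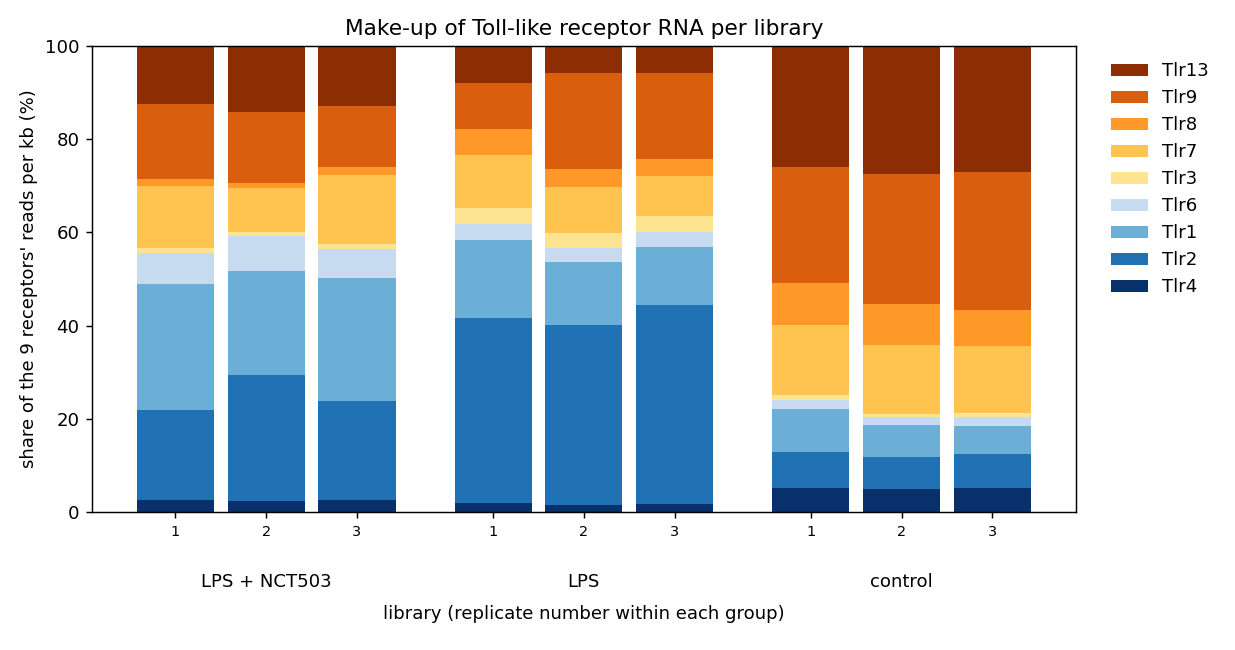
Share (%) of each of the 9 receptors in their summed reads per kb, 1 stacked bar per library, with cell-surface receptors in blue and endosomal receptors in yellow to brown. The blue part takes 55.5% to 59.2% in LPS + NCT503, 56.6% to 61.9% in LPS and 20.4% to 24.1% in control.

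The remaining mouse receptors were near the limit of detection. Tlr5, the flagellin receptor, had 3, 3 and 1 reads in LPS + NCT503, none in any LPS library and 59, 17 and 19 in control. Against a floor of 3 reads over the 3 LPS libraries, Tlr5 was at least 18.1-fold lower in LPS than in control, or at least 10.6-fold without control replicate 1, which held 59 of the 95 control reads. Tlr5 was also lower in LPS + NCT503 than in control, at means of 2.42 and 22.5 normalized reads (log2 fold change -2.65 ± 0.54 SE, adjusted p = 0.00302 by limma). The 7 reads in LPS + NCT503 against 0 in LPS passed the test with an adjusted p of 0.0408 by limma. The authors' own deposited test of that comparison gave p = 0.134 before adjustment, so the call on these few reads depends on the method. Tlr11 and Tlr12, receptors for profilin of Toxoplasma, had 5 and 12 reads summed over LPS + NCT503, 18 and 15 over LPS, and 29 and 38 over control. Tlr11 was lower in LPS + NCT503 than in control (log2 fold change -1.72 ± 0.61 SE, adjusted p = 0.0434 by limma) and passed no other test, and Tlr12 passed none.

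Genes that act with the receptors were read from 4 lists of 40 genes, all tested in each comparison. For LPS against control 17 were called higher and 7 lower, beside 20.5% and 21.5% of all genes. For LPS + NCT503 against LPS 6 were higher and 14 lower, beside 16.2% and 15.1%, and for LPS + NCT503 against control 13 and 13, beside 20.7% and 19.7%. Of the 5 co-receptors, LPS raised Ly96 (log2 fold change 0.96) and lowered Cd36, a fatty acid and lipopeptide receptor (-1.23). In LPS + NCT503 against LPS, Ly86 (-0.83) and Cd180 (-0.68), which encode a TLR4-like complex that restrains LPS responses in macrophages, were lower. In LPS + NCT503 against control 1 co-receptor was higher and 4 lower, among them Cd36 (-0.73), Ly86 (-0.74) and Lbp, the LPS-binding protein (-1.16). Lbp was low throughout, at 22.5 normalized reads in LPS + NCT503 and 49.2 in control.

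Transport and maturation genes of the receptors moved in both directions, with 6 of 17 higher and 4 lower in LPS against control, 2 and 5 in LPS + NCT503 against LPS, and 5 and 3 in LPS + NCT503 against control. Over all genes 42.0%, 31.3% and 40.4% were called in these comparisons, against 10, 7 and 8 of the 17. LPS raised Slc15a3, a lysosomal peptide and histidine transporter (3.22), and Rab10, a GTPase that brings TLR4 to the surface (1.51), and lowered Rab7b, a GTPase that directs TLR4 to lysosomes (-1.69). In LPS + NCT503, Rab7b was higher than in LPS (2.24), at 5813 normalized reads in LPS + NCT503 against 1226 in LPS, while Rab11a, a recycling GTPase (-1.16), and Unc93b1 (-1.02) were lower. Unc93b1, the escort of the endosomal receptors, averaged 15793 normalized reads in LPS + NCT503 and 32261 in LPS (adjusted p = 0.00107 by limma). Against control, LPS + NCT503 had higher Slc15a3 (2.51) and Rab10 (1.58) and lower Cnpy4, a chaperone-like partner of TLR4 (-1.40).

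Of the 6 genes that restrain the receptors, 1 was higher and 1 lower in LPS against control and in LPS + NCT503 against LPS, and 1 higher and 3 lower in LPS + NCT503 against control. These are 2, 2 and 4 of 6, beside 42.0%, 31.3% and 40.4% of all genes. Tollip, an inhibitor of IRAK signalling, was higher with LPS (0.42), higher again in LPS + NCT503 against LPS (1.10), and stood at 1.52 in LPS + NCT503 against control. Sigirr, an inhibitory receptor of the same superfamily, was lower in LPS (-1.39) and in LPS + NCT503 (-1.37) against control. Tnfaip8l2, which encodes the inhibitor TIPE2, was lower in LPS + NCT503 than in LPS (-2.34) and than in control (-2.24).

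Among the 12 adaptors and kinases, 9 were higher and 1 lower in LPS against control (20.5% and 21.5% of all genes), with Irak2 (3.36), Irak3 (3.24) and Myd88 (2.52) as the strongest by p. For LPS + NCT503 against LPS 3 were higher and 6 lower (16.2% and 15.1% of all genes). The shared adaptor genes Myd88 (-2.55) and Tirap (-2.40) were lower and Traf3, a ubiquitin ligase of the TRIF arm, was higher (1.39). Against control, LPS + NCT503 had 6 higher and 3 lower (20.7% and 19.7% of all genes), with Traf3 (3.02), Irak2 (2.77) and Ticam1, the TRIF gene (2.05), higher. Exons of 18 of the 40 genes overlap exons of another gene, among them Slc15a3 over 28.1% and Myd88 over 11.3% of their exonic bases, and such reads may have been shared.

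To describe the patterns further, each member was compared with 9638 other genes of at least 100 mean normalized reads in one group, by the root mean square difference of their log2 values over the 9 libraries after centring each gene. The points share libraries and depth, and a small difference says only that the values moved alike. Tlr1 was nearest to Rel, an NF-κB subunit gene (0.0936 log2 units, against 0.938 for the spread of Tlr1 itself), and Tlr6 to Pi4k2b, a phosphatidylinositol kinase gene (0.0946, against 0.897). Among the members, Tlr1 and Tlr6 were the pair nearest to each other (0.224), followed by Tlr4 and Tlr13 (0.261). The next genes were Rnf213 for Tlr1 (0.133) and Prdm1 for Tlr6 (0.134). Tlr2 was nearest to Dram1 (0.132) and Gpr31b (0.165), and Tlr3 to the interferon-induced genes Irgm2 (0.203) and Slfn1 (0.208). Cd14 was nearest to the integrin gene Itga5 (0.326) and the urokinase receptor gene Plaur (0.337). In log2 units the genes nearest to Tlr8 were further from it than for any other member, Wdfy2 at 0.378 and the endocytic adaptor gene Dab2 at 0.400. These differences are not scaled by a member's own spread, which was 1.15 for Tlr8, 0.442 for Tlr9 and 0.369 for Tlr7. Tlr13 was nearest to Rmnd1 (0.0933) and Tmem57 (0.113), Tlr4 to Zfp90 (0.137) and Ccdc82 (0.139), Tlr7 to Ints13 (0.124) and Ggps1 (0.131), and Tlr9 to Dnajc24 (0.168) and Cyp4f18 (0.181). Exons of 10 of these 20 genes overlap exons of another gene, in Zfp90 over 79.5% of its exonic bases (with Gm26786), so the values listed for Zfp90 may include reads of that gene.

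**Figure D5:**
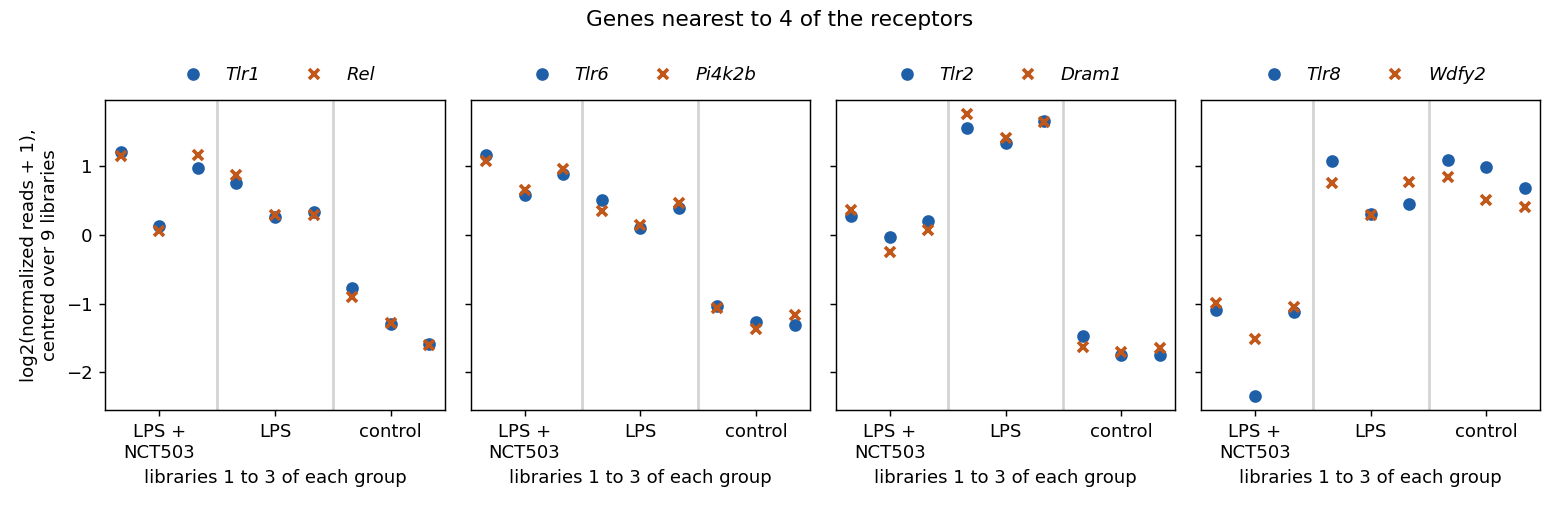
Centred log2(normalized reads + 1) over the 9 libraries of 4 receptors (circles) and the gene nearest to each (crosses), replicates 1 to 3 from left to right within each group. Rel and Pi4k2b follow Tlr1 and Tlr6 closely (0.0936 and 0.0946 log2 units), while Wdfy2 departs from Tlr8 (0.378), most of all in LPS + NCT503 replicate 2.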

How the data were processed

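RNA-seq reads were aligned with TopHat2 to mm10, per the submitters' processing notes, and no source used here gives the counter, its strand setting or its annotation. Per the file headers and the values, the authors deposited 2 tables, with 23001 genes where LPS is set against control and 22620 where LPS + NCT503 is set against LPS, each with signal per library and the authors' log2 fold changes, p-values and adjusted p-values. The deposited signal is reads divided by a size factor: 100% of values were whole multiples (tolerance 0.001), and LPS reads were identical in both tables over 21434 shared genes. Reads were recovered and all 9 libraries put on joint median-of-ratios size factors (0.733 to 1.46). The test was limma-trend (version 3.58.1, R 4.3.3), run on every gene whose mean reached 1 normalized read in either group, on log2(normalized reads + 1), with Benjamini-Hochberg adjustment over all genes and a threshold of 0.05, in the 3 libraries of each group. The comparison of LPS + NCT503 with control used the shared genes. The recovered reads were also tested with edgeR (7769, 6087 and 7546 genes called) and DESeq2. Library totals were 20295862 to 23599685 reads. Overlap of exons was read from GENCODE M21. The scripts were tested on simulated data. Named pathway genes are up to 3 called genes per list with the smallest p, and nearest genes the 2 closest to each member. Members, lists, tests and alternatives were chosen with earlier results of these data known, and the alternatives for GC content and deposited size factors after seeing the files.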

Additional observations from a re-analysis of the deposited data

How the results depend on the processing

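Over the 10 genes, 3 comparisons and the alternatives (a pseudocount of 0.1, no filter, a filter of 10, TMM, CPM and quantile scaling, edgeR, DESeq2, all 9 libraries in 1 fit, a replicate block, the deposited size factors (not for LPS + NCT503 against control), a GC-content correction with and without the block, and leaving out each library), 515 of 560 fitted values kept their direction and side of the threshold, 30 newly passed it, 4 no longer passed it and 13 changed sign, none of these 13 being called on the main scale. Of the 30, 2 passed with the opposite sign and are also among the 13. Tlr7 in LPS against control was -0.56 under CPM and -0.49 under quantile scaling, and in LPS + NCT503 against LPS it was 0.043 under CPM. With DESeq2, Tlr7 in LPS + NCT503 against control was 0.030. Tlr4 in LPS + NCT503 against LPS was 0.23 under CPM, 0.047 with edgeR and 0.013 with DESeq2. Leaving out 1 library at a time, Tlr9 in LPS against control ranged from -0.27 to 0.17, Tlr4 in LPS + NCT503 against LPS from -0.20 to 0.24, Tlr7 in that comparison from -0.42 to 0.21, and Tlr7 in LPS + NCT503 against control from -0.28 to 0.35; the cause was not tested. The number of members called stayed within 7 to 10 for LPS against control and 7 to 9 for LPS + NCT503 against control. For LPS + NCT503 against LPS it was 4, and leaving out 1 library gave 4 to 7: 7 without LPS replicate 1 (Tlr6, Tlr9 and Tlr13 added) and 7 without LPS + NCT503 replicate 2 (Tlr1, Tlr6 and Tlr13 added). The labels do not say whether replicate numbers pair the libraries, and the values cannot settle it. Same-number correlations of deviations were 0.17, 0.08 and -0.02 for LPS and control, and 0.03, -0.15 and -0.20 for LPS + NCT503 and control. For LPS + NCT503 and LPS they were 0.32, 0.27 and -0.08. Different-number correlations ran from -0.33 to 0.35, from -0.17 to 0.25 and from -0.38 to 0.25 in the same order. With the replicate block 7, 6 and 8 members were called, and 9641, 8219 and 8098 of all genes. Without it 8365, 6432 and 8061 of all genes were called. Cd14 in LPS against control had an adjusted p of 1.81e-92 by limma with the block and 6.57e-09 without it. A p that small is beyond what 3 libraries per group can bear out, so p-values with the block call for caution. The GC-content correction called 8, 6 and 7 members, with Tlr7 higher in LPS (0.34) and Tlr4 (-0.46) and Tlr7 (-0.60) lower in LPS + NCT503 than in LPS. All 12 ratio differences kept their sign when 1 library was left out or 1 read was added to each gene. Where the groups did not overlap, leaving out a library could not change the sign, and no ratio was run with the GC-content correction.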
